A study of Saccharomyces cerevisiae with 4 samples.

Results

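The nuclear genes of the respiratory chain and ATP synthase were followed in RNA sequencing libraries of the budding yeast Saccharomyces cerevisiae. The set was chosen by systematic name and holds 42 genes of the 7126 features in the deposited table: 9 for complex IV (COX), 9 for complex III (COR1, QCR, CYT1, RIP1), 4 for complex II (SDH), 15 for ATP synthase with its inhibitor INH1, the cytochrome c genes CYC1 and CYC7, and the NADH dehydrogenase genes NDE1, NDE2 and NDI1. The rule itself uses no measured value, although the set was proposed with earlier results of these data known. All 42 were found, all 42 match the RefSeq annotation, and all 42 passed the filter of a mean of at least 5 normalised reads over the libraries.

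All libraries came from 1 strain, DPY438, labelled Hsf1-AA. In such anchor-away cells added rapamycin withdraws Hsf1, the heat shock transcription factor, from the nucleus. A library each was made from cells kept at 30 °C and from cells given 10 min of heat shock at 39 °C, in both cases either untreated or exposed to 1 µM rapamycin over 45 min. With a single library in every group there is no replicate check, the ratios between libraries have no p-value, and the ranges in parentheses are 95% intervals of the read counts alone. Because the rapamycin-treated cells differ from the untreated ones in drug and in Hsf1 location at once, those influences cannot be told apart, and the labels say neither whether rapamycin came before the heat, and so whether Hsf1 had already left the nucleus, nor whether the strain's TORC1, the usual target of rapamycin, was made resistant. In a bulk library fewer cells with a transcript and less of it per cell cannot be told apart.

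Respiration passes electrons from NADH and succinate through the inner mitochondrial membrane to oxygen. Budding yeast has no proton-pumping complex I: the internal enzyme Ndi1 and the external enzymes Nde1 and Nde2 feed electrons from NADH to coenzyme Q, complex II does so from succinate, complex III passes them to cytochrome c, and complex IV to oxygen. ATP synthase makes ATP from the resulting proton gradient. Transcription of many of these nuclear genes is known to be repressed by glucose and activated by the Hap2, Hap3, Hap4 and Hap5 complex, which binds CCAAT boxes, while stress-responsive genes often carry the AGGGG element bound by Msn2 and Msn4, and Hsf1 binds repeats of GAA and TTC units. A few subunits of complexes III, IV and ATP synthase are coded in the mitochondrial genome. All 7 of those listed, among them COX1, COB and OLI1, stand at 0 in the 4 libraries, as do all 28 mitochondrial Q features, so nothing can be read about them.

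Recovered reads summed to 1561620, 3231228, 2026880 and 2254007 in the libraries at 30 °C without rapamycin, 30 °C with rapamycin, heat shock without rapamycin and heat shock with it. All values are the deposited normalised read counts and follow that order. A ratio is "past 2-fold" where it reaches 1 on the scale of log2(value + 1), which sets a size and tests nothing. Folds are ratios of the deposited values without the added 1. Dividing each library by its total instead of the deposited size factors moves the median log2 ratio of all features from near 0 to -0.42 in heat shock without rapamycin, 0.40 in heat shock with it, -0.34 for rapamycin at 30 °C and 0.53 for rapamycin in heat shock. Comparisons among the genes of 1 library are free of this choice.

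The promoters of the set share CCAAT boxes. In the 300 bases before the start codon, read from the R64 sequence, CCAAT stood on either strand in 36 of 42 (85.7%) of the genes and in 2510 of 6007 (41.8%) of all nuclear promoters of that length. The element AGGGG stood on either strand in 18 of 42 (42.9%) of the genes and in 1334 of 6007 (22.2%) of all promoters. Paired heat shock element units were found no more often than elsewhere: TTCNNGAA was found in 5 of 42 (11.9%) of the genes against 786 of 6007 (13.1%) of all promoters, and GAANNTTC in 2 of 42 (4.76%) against 692 of 6007 (11.5%). Each reads the same on both strands, and they can overlap each other. The Rox1 core ATTGTT, which shares 4 letters with the reverse of CCAAT without being able to hold it, stood in 18 of 42 (42.9%) of the genes and 2048 of 6007 (34.1%) of all promoters. The Hap1 motif was found for QCR6 alone among the genes, and in 8 of the 6007 promoters. A match describes letters in a window and is not a bound site, and a missing match says only that the letters are not in the window.

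Set beside the heat shock results given later, AGGGG and TTCNNGAA were more frequent among the genes with the larger ratios, and ATTGTT less. Of the 14 genes past 2-fold in both heat shock comparisons, 9 (64.3%) had AGGGG, against 6 of 21 (28.6%) of those past it in neither. Among all 703 coding genes kept that were past 2-fold in both, 52.1% had it. TTCNNGAA stood in 4 of 14 (28.6%), namely QCR7, QCR10, RIP1 and SDH2, against 1 of 21 (4.76%), ATP17, and in 12.9% of the 703. GAANNTTC stood in none of the 14, in 2 of 21 and in 77 of the 703 (10.95%). ATTGTT stood in 5 of 14 (35.7%), in 11 of 21 (52.4%) and in 242 of the 703 (34.4%). Its share among the 14 was thus near the 34.1% of all promoters, and that of the 21 was the higher one. CCAAT was equally frequent among the 14 and the 21, in 12 of 14 and 18 of 21 (85.7% each). It stood in 295 of the 703 (41.96%). These are descriptions of few genes and were not tested. The windows printed here, 5′ to 3′ toward the start codon, are those of the isoform pairs CYC7 with CYC1 and COX5B with COX5A, of NDE2 and NDI1, whose heat shock ratios without rapamycin were among the 4 highest of the set, and of SDH2, which carries both motifs marked below and a TTCNNGAA unit. Capitals mark CCAAT and AGGGG, the latter also as CCCCT and the former also as ATTGG on the opposite strand.
CYC7 promoter (chrV:79978-80277, minus strand): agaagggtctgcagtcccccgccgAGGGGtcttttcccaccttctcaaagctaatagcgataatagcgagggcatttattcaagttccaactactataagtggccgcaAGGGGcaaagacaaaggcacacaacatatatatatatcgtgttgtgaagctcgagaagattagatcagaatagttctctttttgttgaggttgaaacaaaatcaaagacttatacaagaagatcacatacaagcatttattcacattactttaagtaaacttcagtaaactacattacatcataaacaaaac
CYC1 promoter (chrX:526035-526334, plus strand): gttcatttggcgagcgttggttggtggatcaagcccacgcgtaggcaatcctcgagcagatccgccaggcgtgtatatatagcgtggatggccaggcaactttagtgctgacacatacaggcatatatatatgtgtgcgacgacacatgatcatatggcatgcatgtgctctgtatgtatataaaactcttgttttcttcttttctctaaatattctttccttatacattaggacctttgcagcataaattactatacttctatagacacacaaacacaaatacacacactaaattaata
COX5B promoter (chrIX:154922-155221, plus strand): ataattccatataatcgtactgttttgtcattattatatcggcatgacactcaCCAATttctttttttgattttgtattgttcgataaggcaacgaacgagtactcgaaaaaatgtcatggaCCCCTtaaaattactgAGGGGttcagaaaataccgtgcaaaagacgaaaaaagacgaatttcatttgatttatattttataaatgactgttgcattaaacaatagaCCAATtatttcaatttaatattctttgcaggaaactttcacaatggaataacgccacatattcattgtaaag
COX5A promoter (chrXIV:531425-531724, plus strand): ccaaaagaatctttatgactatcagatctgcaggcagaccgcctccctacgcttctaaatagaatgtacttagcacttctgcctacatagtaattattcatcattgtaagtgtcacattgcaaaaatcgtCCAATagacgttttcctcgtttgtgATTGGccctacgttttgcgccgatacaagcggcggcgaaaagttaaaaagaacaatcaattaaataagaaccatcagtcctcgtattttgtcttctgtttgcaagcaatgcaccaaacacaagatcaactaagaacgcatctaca
NDE2 promoter (chrIV:302911-303210, plus strand): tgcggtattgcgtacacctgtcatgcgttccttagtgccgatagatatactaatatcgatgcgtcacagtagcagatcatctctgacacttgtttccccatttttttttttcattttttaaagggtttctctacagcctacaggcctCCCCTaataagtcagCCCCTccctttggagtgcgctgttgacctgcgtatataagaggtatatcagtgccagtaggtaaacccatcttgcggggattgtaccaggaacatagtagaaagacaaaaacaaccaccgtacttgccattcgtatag
NDI1 promoter (chrXIII:29808-30107, minus strand): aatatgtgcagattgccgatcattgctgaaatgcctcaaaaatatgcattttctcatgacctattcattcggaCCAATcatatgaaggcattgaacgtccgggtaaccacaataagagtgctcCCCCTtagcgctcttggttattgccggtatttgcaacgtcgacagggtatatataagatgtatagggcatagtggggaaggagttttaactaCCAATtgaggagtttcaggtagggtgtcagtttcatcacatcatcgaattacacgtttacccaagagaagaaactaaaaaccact
SDH2 promoter (chrXII:53932-54231, minus strand): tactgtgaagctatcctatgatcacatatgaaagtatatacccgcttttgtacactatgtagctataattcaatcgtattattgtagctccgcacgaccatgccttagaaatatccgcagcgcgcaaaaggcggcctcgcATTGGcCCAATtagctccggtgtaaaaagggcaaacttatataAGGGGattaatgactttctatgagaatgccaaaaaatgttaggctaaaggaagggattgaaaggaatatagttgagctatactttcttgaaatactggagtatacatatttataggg

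CYC7 and NDE2 each held 2 AGGGG elements and no CCAAT box. In CYC7 the elements began 276 and 192 bases before the start codon, and in NDE2 they lay on the opposite strand, at 153 and 138 bases. COX5B held 2 of each motif, with AGGGG at 178 and 162 bases, while its partner COX5A held 2 CCAAT boxes and no AGGGG. CYC1, the partner of CYC7, held neither in this window. NDI1 had 1 AGGGG and 2 CCAAT boxes, and SDH2 1 AGGGG, at 117 bases, with 2 CCAAT boxes that begin 160 and 154 bases before the start codon.

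At 30 °C without rapamycin the set stood well above the typical gene. Per kb of coding length, the median of the 42 genes was 400.02 normalised reads, against 78.3 for all 5436 coding genes kept, and 41 of 42 lay above that median. The exception was NDE2. The highest level per kb was that of CYC1, the main cytochrome c gene, at 1313, followed by ATP2, the catalytic beta subunit of ATP synthase, at 1172.

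**Figure D1:**
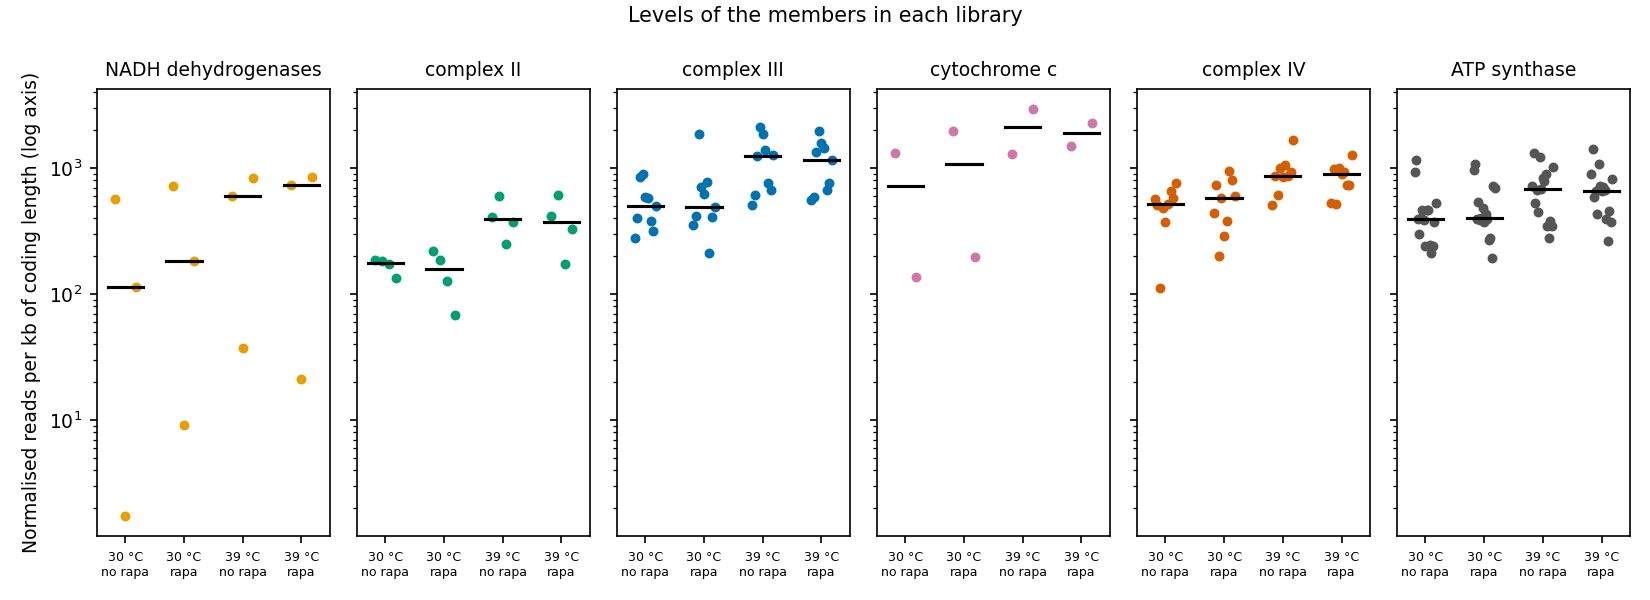
Level of each gene, in normalised reads per kb of coding length on a log axis, in the 4 libraries, by complex. Points are genes and black lines the medians of each complex; the lowest points are NDE2, and the median of complex II goes from 178 to 392 between the libraries without rapamycin.

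Within ATP synthase and complex III the levels per kb differed by several-fold, although the proteins are assembled together. In ATP synthase they ran from 214 for ATP20, subunit g, to that of ATP2, a ratio of 5.49. In complex III they ran from 278 for QCR2, a core protein, to 901 for QCR7. In complex IV they ran from 113 for COX5B to 766 for COX13. COX5B codes an alternative isoform of subunit 5, and the next lowest was COX7 at 375. In this library complex II was lower and narrower, from 134 for SDH4 to 187 for SDH1. Its ratio of highest to lowest was 1.40, 3.20, 2.44 and 3.49 in the libraries in order. In heat shock with rapamycin it was thus wider than complex IV, at 2.41. In each complex the median level per kb was higher in both heat shock libraries than in both 30 °C libraries. Many of these genes are short, and how read counting at their ends bears on values per kb was not tested.

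The first comparison asked how the set differed after 10 min at 39 °C without rapamycin. It stood higher in heat shock: 20 of 42 genes were at least 2-fold higher, against 19.8% of all 5642 features kept, and none was at least 2-fold lower, against 19.3% of all. The median log2 ratio was 0.96, with all features at 0.02, and 38 of 42 ratios lay above 0 (50.8% of all features). The differences were modest for most of the genes and large for CYC7, NDE2, NDI1 and COX5B. On library totals 8 genes were at least 2-fold higher and on protein-coding totals 10, but the median of the set stayed 0.93 and 0.94 above the median of all features, against 0.93 as deposited.

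With rapamycin the set was also higher in heat shock. There 15 of 42 genes were at least 2-fold higher (18.3% of all features) and none at least 2-fold lower (14.6%), with a median of 0.74 against -0.00 and 35 ratios above 0 (49.9%). On library totals the count was 23, and the median stayed 0.74 above that of all features. Both arms together, which share no library, had 14 genes at least 2-fold higher in both (12.8% of all features were), 6 without rapamycin alone, 1 with rapamycin alone and 21 in neither. Ratios above 0 in both arms were found for 34 of 42 genes (40.1% of all features). The set took 0.818% (0.800% to 0.835%), 0.785% (0.772% to 0.797%), 1.12% (1.10% to 1.14%) and 1.40% (1.39% to 1.42%) of the protein-coding reads in the 4 libraries.

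**Figure D2:**
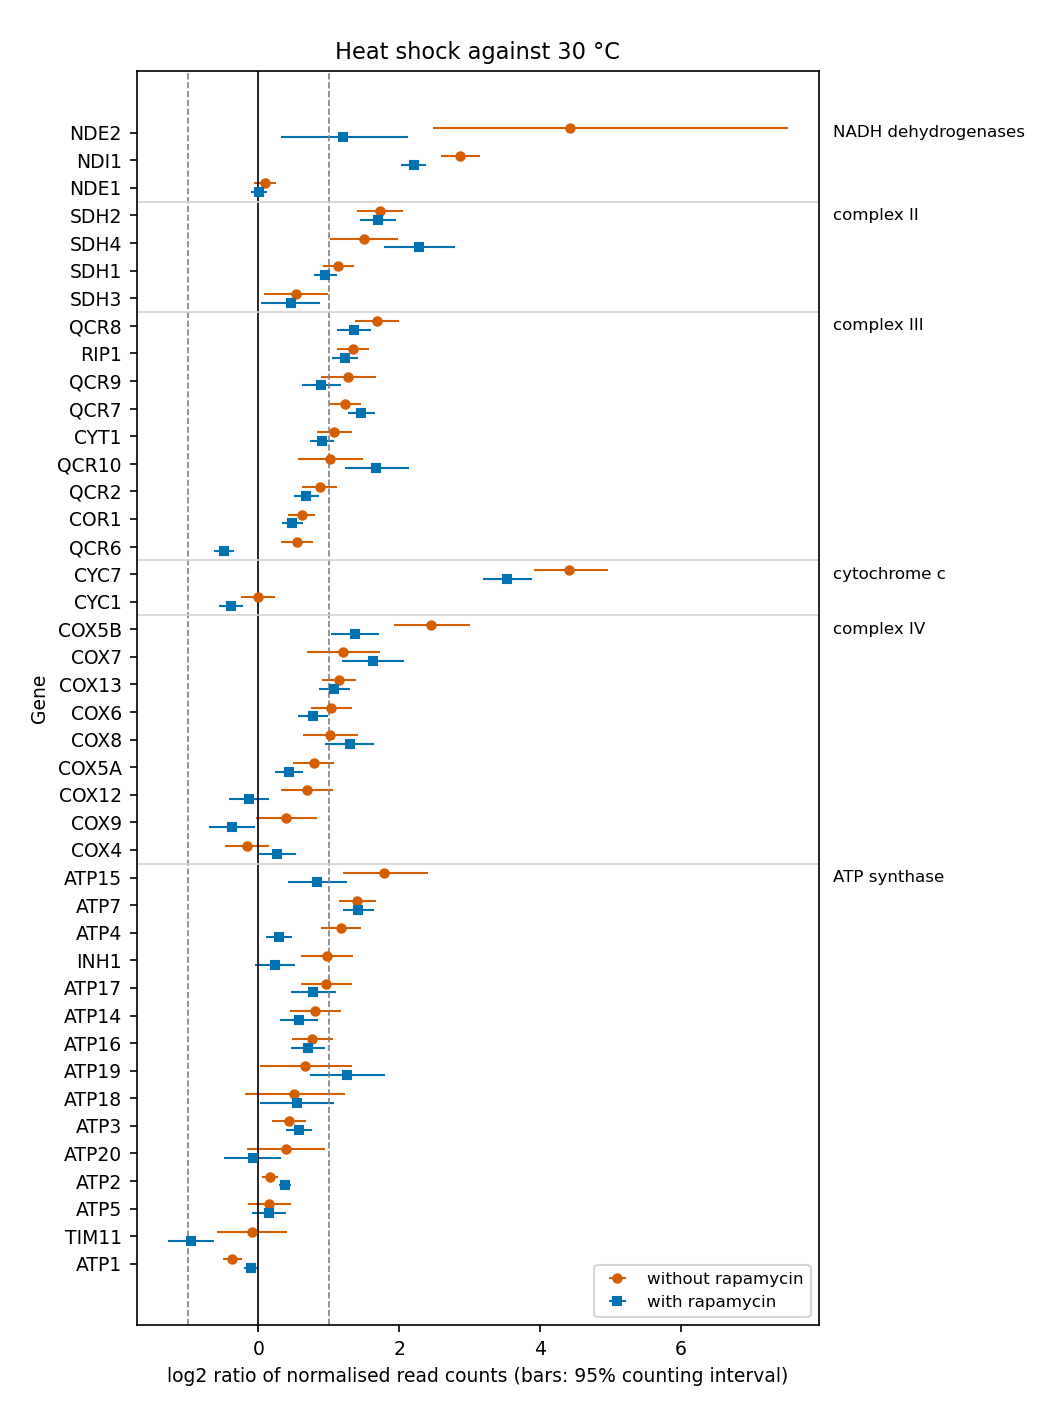
Heat shock ratio of each gene on the log2 scale, without rapamycin (circles) and with it (squares), by complex. Bars are 95% counting intervals, dashed lines mark 2-fold. CYC7, NDE2, NDI1 and COX5B stand to the right, and most other genes lie between 0 and 2 in both arms.

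The electron entry enzymes held both some of the largest and some of the smallest ratios. Where a pair of heat shock folds is given for a gene, the first is without rapamycin and the second with it. NDI1, the internal NADH dehydrogenase (YML120C, chrXIII:28266-29807), was at 177, 284, 1286 and 1309.5 normalised reads. Both heat shock libraries lay far above both 30 °C libraries: NDI1 was 7.26-fold higher (6.004 to 8.83) without rapamycin and 4.61-fold higher (4.08 to 5.22) with it. NDE1, the main external enzyme (YMR145C, chrXIII:554793-556475), was at 956, 1227, 1018 and 1235. Its libraries overlapped in temperature, and its folds in heat shock were 1.06 and 1.006. The order of their levels per kb was not the same at both temperatures: NDI1 was at 115, 184, 834 and 849 and NDE1 at 568, 729, 605 and 734, so that NDI1 went from below NDE1 at 30 °C to above it in heat shock in both arms. NDE2, the minor external enzyme (YDL085W, chrIV:303211-304848), was at 2.86, 15.1, 61.5 and 34.6, from 2, 17, 41 and 36 reads. It was the scarcest gene of the set in every library, and was 21.5-fold higher (5.58 to 183) in heat shock without rapamycin and 2.29-fold higher (1.25 to 4.35) with it.

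Complex II, succinate dehydrogenase, stood higher as a group. Of its 4 genes 3 were at least 2-fold higher without rapamycin and 2 with it, beside 19.8% and 18.3% of all features. SDH2, the iron-sulfur subunit (YLL041C, chrXII:53131-53931), was at 147, 151, 486 and 491, 3.30-fold higher (2.64 to 4.16) and 3.25-fold higher (2.73 to 3.89). The arms gave nearly the same value for it. SDH4, a membrane anchor (YDR178W, chrIV:817950-818495), was at 72.9, 37.3, 205 and 181, 2.82-fold higher (2.03 to 3.97) and 4.84-fold higher (3.45 to 6.94). Its value at 30 °C with rapamycin was the lowest of the 4, while its heat shock values were close together. SDH1, the flavoprotein, was at 359, 420.2, 786 and 811, 2.19-fold higher (1.88 to 2.55) and 1.93-fold higher (1.72 to 2.16), and the other membrane anchor gene, SDH3, was at 103, 76.4, 148 and 104.7. SDH3 had the smallest ratios of the complex, with folds of 1.44 and 1.37.

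In complex III the redox subunits and, apart from QCR6, the small subunits had larger ratios than the core proteins. COR1 and QCR2, the core proteins, had heat shock folds of 1.53 and 1.82 without rapamycin and 1.39 and 1.60 with it. RIP1, the Rieske iron-sulfur protein (YEL024W, chrV:107260-107907), was at 326, 322, 829 and 751, 2.54-fold higher (2.18 to 2.98) and 2.34-fold higher (2.06 to 2.65). CYT1, cytochrome c1, was at 297, 380.2, 627 and 710.0, 2.11-fold higher (1.78 to 2.501) and 1.87-fold higher (1.66 to 2.11). For both redox subunits the heat shock libraries lay above the 30 °C libraries without overlap. Among the small subunits QCR8 (YJL166W, chrX:106434-106718) was at 167, 178, 537 and 454, 3.21-fold higher (2.60 to 3.99) and 2.56-fold higher (2.16 to 3.03). QCR7 was at 346, 274, 813 and 752, with folds of 2.35 and 2.75. QCR9 and QCR10, the genes of the complex whose coding sequence is split by an intron, had folds of 2.42 and 2.03 without rapamycin and 1.86 and 3.19 with it. QCR6, the acidic subunit (YFR033C, chrVI:224326-224769), went its own way. It was at 382, 833, 558 and 594, 1.46-fold higher (1.25 to 1.72) in heat shock without rapamycin and 1.40-fold lower (1.27 to 1.56) with it, and its highest value of all was that at 30 °C with rapamycin. The opposite directions depend on scaling: on library totals its heat shock log2 ratios are only 0.10 and -0.08.

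The cytochrome c genes, which code interchangeable electron carriers, parted in heat shock. CYC7, cytochrome c isoform 2 (YEL039C, chrV:79636-79977), was at 47.2, 67.5, 1005 and 776, 21.3-fold higher (15.0 to 31.2) without rapamycin and 11.5-fold higher (9.08 to 14.7) with it. CYC1, isoform 1 (YJR048W, chrX:526335-526664), was at 433, 652, 432 and 498, with folds of 0.997 (0.845 to 1.18) and 0.763 (0.681 to 0.855). CYC7 thus went from the minor to the major cytochrome c transcript. Per kb it was at 138, 197, 2937 and 2269.8 and CYC1 at 1313, 1976, 1308 and 1508. The share of CYC7 in the reads of the pair was 9.82% (6.86% to 13.5%), 9.38% (7.46% to 11.6%), 69.9% (66.9% to 72.8%) and 60.9% (58.2% to 63.6%). This exchange needs no scaling between libraries. The summed pair was 2.99-fold higher without rapamycin and 1.77-fold higher with it.

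A smaller shift between isoforms was seen for subunit 5 of complex IV, where both isoforms stood higher in heat shock. COX5B, the isoform known from hypoxic cells (YIL111W, chrIX:155222-155765, with an intron), was at 51.5, 92.4, 280.4 and 239, 5.45-fold higher (3.80 to 8.01) and 2.59-fold higher (2.05 to 3.29). COX5A, the aerobic isoform (YNL052W, chrXIV:531725-532186), was at 234, 338, 403 and 458, with folds of 1.72 and 1.35. The share of COX5B in the reads of the pair was 18% (12.9% to 24.0%), 21.4% (17.9% to 25.4%), 41.0% (36.5% to 45.7%) and 34.3% (30.8% to 37.9%). It was higher in both heat shock libraries than in both 30 °C libraries, and COX5A remained the larger part in all 4. For NDE2 the share in the reads of NDE1 and NDE2 was 0.298% (0.0361% to 1.07%), 1.22% (0.710% to 1.94%), 5.69% (4.12% to 7.65%) and 2.73% (1.92% to 3.75%), small throughout. The coding sequences of the pairs are alike in part: 77.0% of aligned bases are identical in CYC1 and CYC7, 66.4% in COX5A and COX5B and 62.1% in NDE1 and NDE2, with longest identical runs of 35, 12 and 11 bases in the alignment. The sources used here do not say how reads within such runs were assigned.

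**Figure D3:**
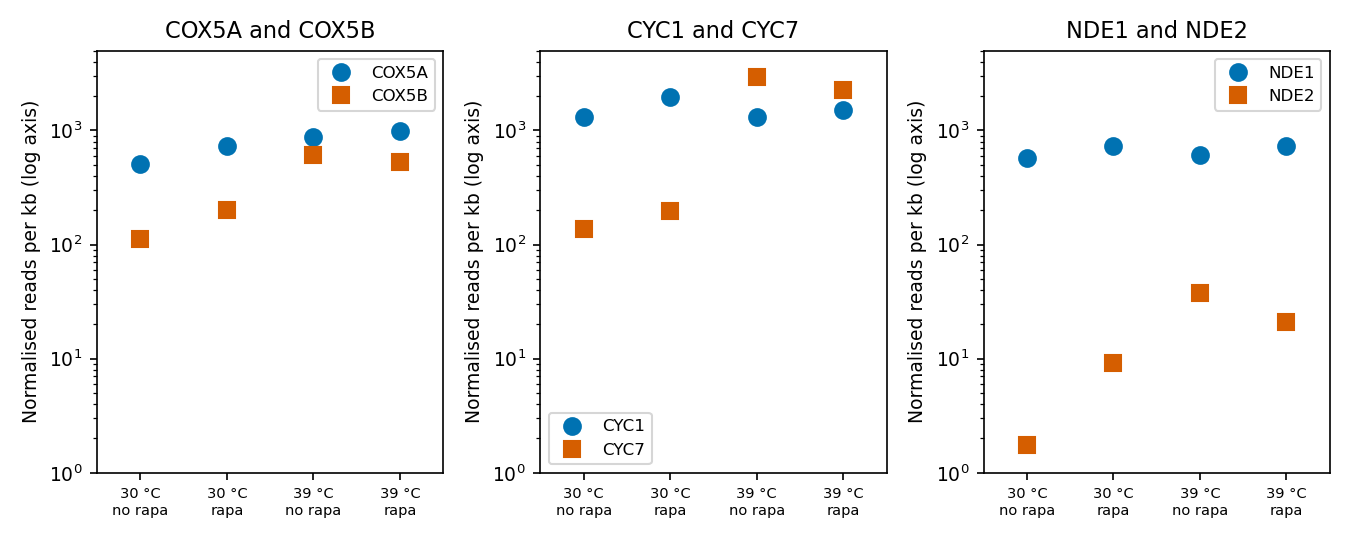
Levels of the paralog pairs in each library, in normalised reads per kb of coding length on a shared log axis. CYC7 passes CYC1 in both heat shock libraries, COX5B comes closer to COX5A without passing it, and NDE2 stays far below NDE1.

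The folds of the other complex IV genes ran from 0.773 to 3.08 over both arms. COX13, COX6, COX7 and COX8, all small structural subunits, were past 2-fold without rapamycin, with folds of 2.21, 2.05, 2.29 and 2.03, and with rapamycin of 2.11, 1.71, 3.08 and 2.45, where COX6 missed the rule. COX13 was at 299, 235, 659.7 and 494 and COX7 at 68.6, 53.3, 157 and 164. Their heat shock libraries lay above their 30 °C libraries without overlap. COX4, the subunit gene without either motif in its window, was at 269, 208, 239.9 and 249.8, with folds of 0.892 and 1.20. COX9 and COX12 were at 119, 171, 156 and 133 and at 147, 202, 237 and 184. Both had ratios above 0 without rapamycin, log2 0.39 and 0.68, and below 0 with it, -0.37 and -0.13, but the signs depend on scaling. On library totals COX9 is at -0.05 without rapamycin and 0.04 with it, and COX12 at 0.24 and 0.28.

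ATP synthase stood closer to its 30 °C level than complexes II, III and IV. Of its 15 genes 3 were at least 2-fold higher without rapamycin and 2 with it, shares close to or below the 19.8% and 18.3% of all features. The sum over the genes was 1.26-fold and 1.25-fold higher. The sums of complex II were 2.38-fold and 2.32-fold higher, of complex III 2.03-fold and 1.63-fold and of complex IV 1.85-fold and 1.57-fold. At 30 °C without rapamycin ATP1 and ATP2 made up 1533 and 1800 of the ATP synthase sum of 5398. They thus weighed heavily in that sum and in the read shares below. The median log2 ratios of the 15 genes were 0.66 and 0.53. Those of complex II were 1.30 and 1.32, of complex III 1.07 and 0.90 and of complex IV 1.01 and 0.78. ATP synthase reads were 0.374% (0.362% to 0.386%), 0.331% (0.323% to 0.339%), 0.376% (0.365% to 0.387%) and 0.490% (0.479% to 0.501%) of the protein-coding reads, nearly equal in the pair of libraries without rapamycin. On library totals its sum goes the other way without rapamycin, with 0.242% of all reads at 30 °C and 0.224% in heat shock, against 0.197% and 0.326% with it.

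As deposited, the abundant subunits of the catalytic head differed little. ATP1, the alpha subunit (YBL099W, chrII:37053-38690), was at 1533, 1594, 1186 and 1483, 1.29-fold lower (1.18 to 1.42) without rapamycin, with a fold of 0.931 with it. ATP2, the beta subunit (YJR121W, chrX:647607-649142), was at 1799.97, 1666, 2014 and 2166, with folds of 1.12 and 1.30. ATP3, the gamma subunit of the rotor, had folds of 1.35 and 1.49. On library totals the log2 ratios of ATP1 are -0.81 without rapamycin and 0.30 with it. Those of ATP2 are -0.28 and 0.78, and those of ATP3 -0.01 and 0.98. The small rotor subunits stood higher: ATP15, epsilon, was at 45.8, 70.2, 157 and 125, 3.44-fold higher (2.30 to 5.28) and 1.78-fold higher (1.34 to 2.38), and ATP16, delta, had folds of 1.70 and 1.62. In the peripheral stalk, ATP7, subunit d (YKL016C, chrXI:407465-407989), was at 244, 211, 648 and 564, 2.65-fold higher (2.21 to 3.18) and 2.67-fold higher (2.29 to 3.11). ATP7 differed from ATP5, the oligomycin sensitivity protein of the same stalk, which was at 256, 249, 285 and 276 with folds of 1.11 and 1.11. ATP4, subunit b, was at 222, 399.8, 498 and 489, 2.25-fold higher (1.85 to 2.74) and 1.22-fold higher (1.08 to 1.39), and here the value at 30 °C with rapamycin was nearer to the heat shock values than to that without. ATP14, subunit h, had folds of 1.75 and 1.49.

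Of the membrane subunits, ATP17, ATP18 and ATP20 were within 2-fold, with folds of 1.94, 1.42 and 1.31 without rapamycin and 1.72, 1.46 and 0.944 with it. ATP19, subunit k, was at 50.0, 40.0, 79.5 and 95.1 and past 2-fold with rapamycin alone, 2.38-fold higher (1.66 to 3.46). TIM11, subunit e, a dimerisation factor (YDR322C-A, chrIV:1112003-1112293), was at 109, 211, 102 and 109. As deposited it had the lowest heat shock ratio of the set, 1.94-fold lower (1.54 to 2.45) with rapamycin. Its other 3 deposited values were nearly equal, and the one at 30 °C with rapamycin stood apart. On library totals this pattern is gone, with heat shock log2 ratios of -0.53 without rapamycin and -0.55 with it. INH1, which codes the protein that stops the enzyme from hydrolysing ATP, was at 136, 179, 265 and 210.4, 1.95-fold higher (1.51 to 2.53) in heat shock without rapamycin and 1.18-fold higher (0.969 to 1.43) with it, and so under the 2-fold rule in both.

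The next question was whether the heat shock ratios differed between arms, that is, with and without the drug that withdraws Hsf1. For 29 of 42 genes the ratio was nearer to 0 with rapamycin (59.9% of all features), and the median of the difference, with rapamycin minus without, was -0.17 on the log2 scale, against 0.06 for all features. Past 2-fold lower were 3 genes, NDE2, COX5B and QCR6 (8.29% of all features), and none was past 2-fold higher (9.25%). These counts depend on scaling: library totals gave 1 lower and 9 higher and a median of 0.67, which was -0.23 relative to all features, as against -0.24 as deposited. The difference lay above 0 for 12 of 42 genes as deposited and for 35 on library totals. The heat shock fold of NDE2 was 9.38-fold smaller with rapamycin (2.03 to 43.4, an approximate interval from the 4 read counts), a value that rests on 2 reads at 30 °C without rapamycin. Those of COX5B and QCR6 were 2.10-fold (1.38 to 3.21) and 2.05-fold (1.70 to 2.47) smaller. For CYC7 and NDI1 it was 1.85-fold (1.22 to 2.82) and 1.58-fold (1.26 to 1.97) smaller, and both remained well above 2-fold higher in heat shock in each arm. On library totals the log2 differences are -2.09 for NDE2, -0.22 for COX5B, -0.18 for QCR6, -0.03 for CYC7 and 0.20 for NDI1, so that NDE2 alone of these stays past 2-fold and NDI1 turns. SDH4 had the highest difference of the set, log2 0.76 as deposited and 1.61 on library totals. Across the 42 genes the ratios of the arms had a Spearman correlation of 0.83, and across all 5642 features 0.78, a description over genes that share libraries within each arm.

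**Figure D4:**
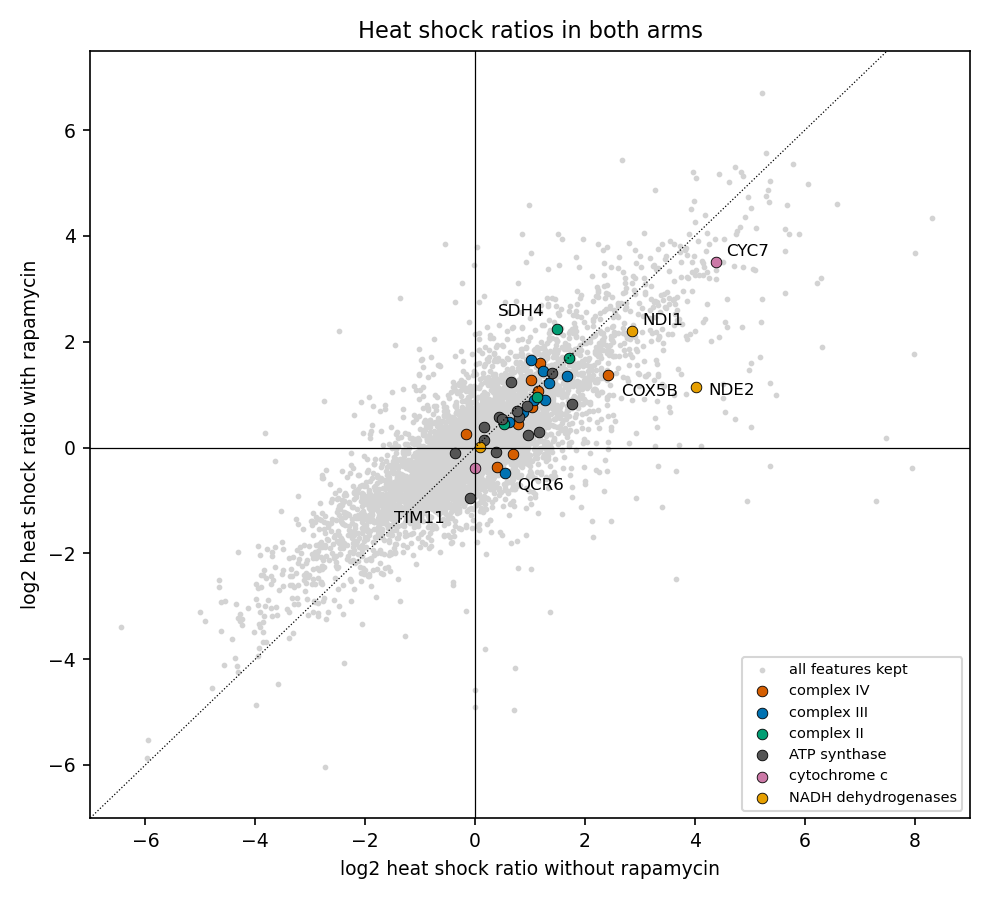
Heat shock log2 ratio without rapamycin (horizontal axis) and with it (vertical axis) for all features kept (grey) and the 42 genes (coloured by complex). The dotted line marks equal ratios; most of the genes lie in the upper right near the line, with NDE2 and COX5B below it and SDH4 above.

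Rapamycin was then compared with no rapamycin at each temperature. At 30 °C 2 of 42 genes (4.76%) were at least 2-fold higher, QCR6 and NDE2, a share near the 4.70% of all features. As deposited none was at least 2-fold lower (4.02%). The median was 0.18, against 0.01 for all, and it is -0.18 on library totals. QCR6 was 2.18-fold higher (1.90 to 2.51) and NDE2 5.28-fold higher (1.25 to 47.1). Next to these stood TIM11, 1.94-fold higher (1.49 to 2.54), COX5B, 1.80-fold higher (1.22 to 2.70), and ATP4, 1.80-fold higher (1.4997 to 2.18). At the other end were SDH4, 1.95-fold lower (1.27 to 3.01), and QCR10, 1.78-fold lower (1.22 to 2.60). On library totals QCR6 is under the rule, at log2 0.76, while SDH4 and QCR10 are past 2-fold lower, at -1.30 and -1.18. In heat shock no gene was past 2-fold in either direction (4.56% of all features were higher and 2.46% lower), and the median was -0.04 against 0.04, or 0.45 against 0.53 on library totals. The log2 ratios of the genes ran from -0.81 for NDE2 to 0.32 for ATP1 in heat shock, and from -0.95 for SDH4 to 2.06 for NDE2 at 30 °C. In heat shock NDE2 was 1.78-fold lower (1.11 to 2.86) and CYC7 1.29-fold lower (1.17 to 1.44), a direction that turns on library totals (log2 0.12), while NDI1 was at a fold of 1.018 (0.934 to 1.11).

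**Figure D5:**
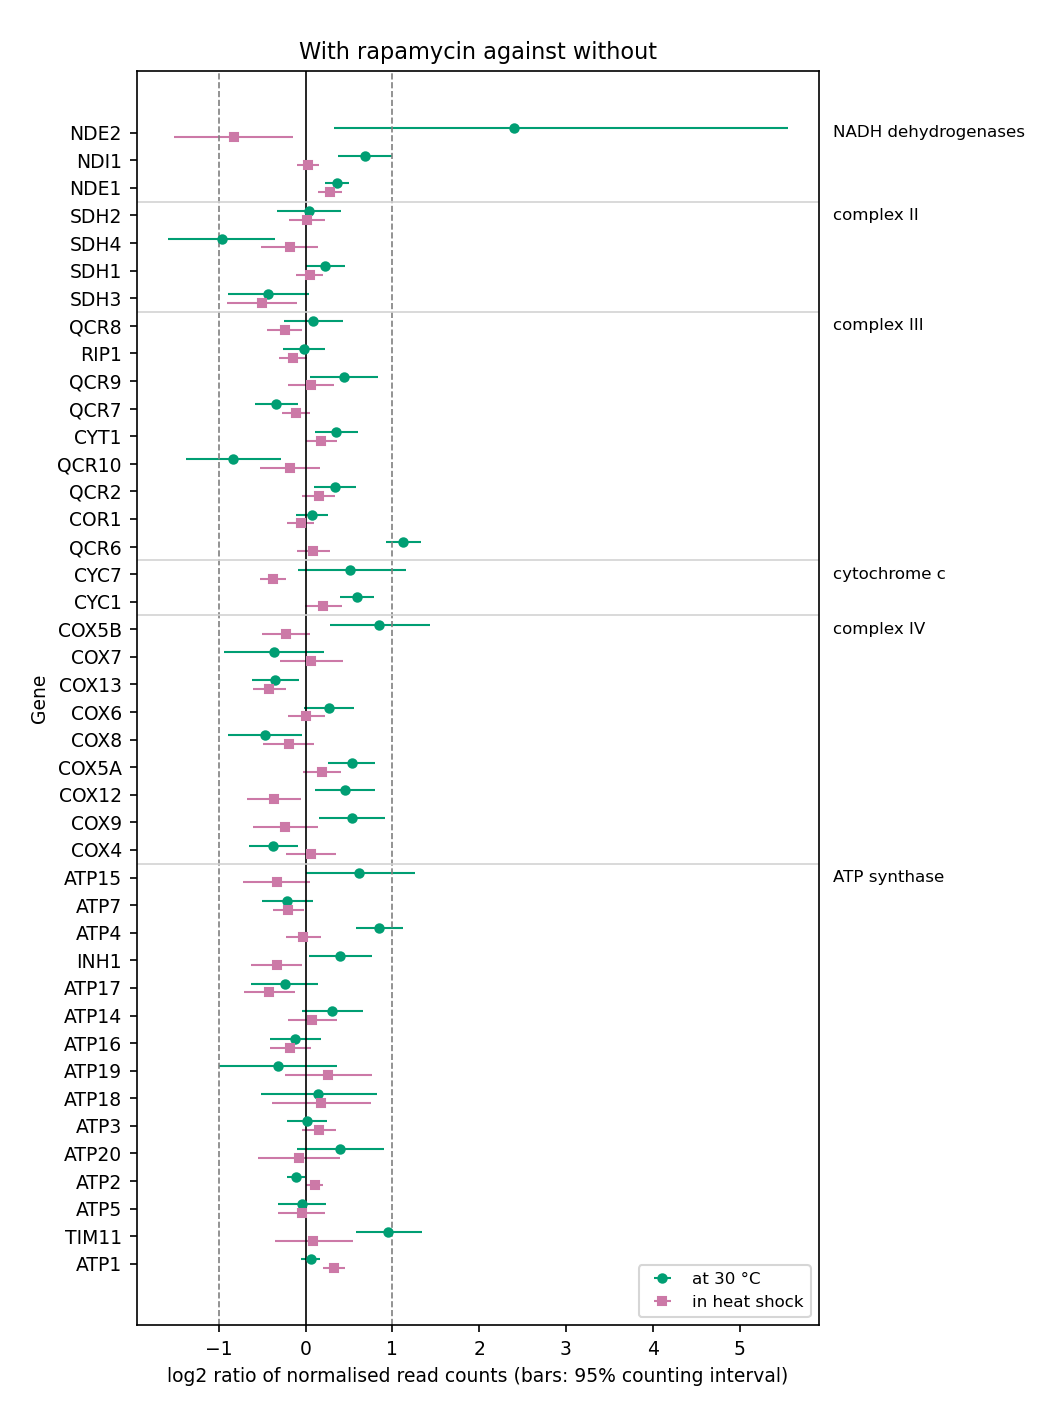
Ratio with rapamycin over without on the log2 scale for each gene, at 30 °C (circles) and in heat shock (squares). Bars are 95% counting intervals and dashed lines mark 2-fold; in heat shock all squares lie between -0.83 and 0.32, and the circles are more widely spread.

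Other genes of the pathway, from lists chosen with earlier results of these data known, are set beside the structural genes as counts past 2-fold. Of all features 19.8% were higher and 19.3% lower without rapamycin, and 18.3% and 14.6% with it, and a count near those shares is no result about a list. Among the regulators, HAP4, the activating and limiting subunit of the CCAAT-binding complex, was at 179, 195, 681 and 1439. It was 3.81-fold higher (3.12 to 4.68) in heat shock without rapamycin and 7.40-fold higher (6.42 to 8.56) with it, and 2.11-fold higher (1.90 to 2.35) with rapamycin than without in heat shock. HAP2, a DNA-binding subunit, was at 54.3, 37.3, 135 and 82.6, 2.48-fold higher (1.68 to 3.73) and 2.21-fold higher (1.51 to 3.28). HAP3 and HAP5, its partners, were scarce, at 21.4, 37.3, 22.5 and 29.8 and at 22.9, 43.5, 33.0 and 49.0, and HAP1, the heme-responsive factor, had folds of 1.53 and 1.34. Of the 7 regulators, 2 were past 2-fold higher without rapamycin and 4 with it, the further ones being ROX1 and MOT3, repressors of hypoxic genes.

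The citric acid cycle, which feeds the chain, gave counts like those of the set: 5 of 12 genes were at least 2-fold higher without rapamycin and 6 with it, with medians of 0.89 and 0.94 and none at least 2-fold lower. CIT1, citrate synthase, was at 283, 429, 2681 and 2702, 9.47-fold higher (8.17 to 11.02) and 6.30-fold higher (5.71 to 6.95), and IDH2, a subunit of isocitrate dehydrogenase, 4.43-fold higher (3.69 to 5.34) and 4.93-fold higher (4.29 to 5.69). The genes of mitochondrial ribosomal proteins, also nuclear genes of the organelle, did not: 2 of 54 were at least 2-fold higher and 5 lower without rapamycin, 1 and 2 with it, and the medians were -0.20 and -0.25. With 1 library a group, these differences between lists have no test. Counts and medians of the lists are given on the deposited scaling only. Library totals move the median of all features to -0.42 without rapamycin and 0.40 with it, so a small list median may change sign.

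Paralogs and accessory proteins of the complexes included genes with larger ratios than most subunits, 6 of 8 past 2-fold higher without rapamycin and 6 with it, and 1 lower with it, RCF2. STF2, a factor known to stabilise the inhibited ATP synthase, was at 51.5, 66.6, 1429 and 1147, 27.8-fold higher (19.9 to 39.9) and 17.2-fold higher (13.6 to 22.0). STF1, a paralog of INH1, was at 25.7, 12.4, 147 and 141, 5.71-fold higher (3.43 to 10.03) and 11.4-fold higher (6.56 to 21.3). Its ratios exceeded those of INH1 in both arms. COX26, a small protein bound to complex IV, was at 50.0, 41.8, 265 and 323, 5.30-fold higher (3.67 to 7.86) and 7.73-fold higher (5.69 to 10.7). SDH9, a minor paralog of SDH1, had no read at 30 °C without rapamycin and was at least 9.44-fold higher in heat shock, taking 3 reads per library as the floor.

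The assembly factors of complexes III and IV and of ATP synthase had counts not far from or below the shares of all features. For complex IV 5 of 23 were past 2-fold higher and 1 lower in each arm, with medians of 0.41 and 0.48. The lower one was OXA1, the inner membrane insertase, 2.30-fold lower (1.66 to 3.24) and 2.72-fold lower (2.07 to 3.62). For complex III and cytochrome c 2 of 8 were higher without rapamycin and 1 with it, with 1 lower in each. For ATP synthase 2 of 9 were higher without rapamycin and 0 with it, where 1 was lower. Of the 4 complex II factors 3 were higher in each arm, with SDH8, a chaperone of SDH1, 5.03-fold higher (3.22 to 8.16) and 2.53-fold higher (1.82 to 3.56). In coenzyme Q synthesis 6 of 11 genes were past 2-fold higher without rapamycin and 5 with it, and COQ2 was past 2-fold lower with it. In heme synthesis 2 of 8 were higher and 1, HEM1, lower without rapamycin, and none past 2-fold with it. Factors of mitochondrial gene expression had 1 of 19 higher and 5 lower without rapamycin, and 0 and 2 with it. Of the inner membrane carriers and porins 5 of 11 were higher in each arm, led by MPC3, a pyruvate carrier subunit, 26.5-fold higher (10.03 to 99.1) and 12.1-fold higher (7.25 to 21.6). Of the 3 other electron donors 2 were higher in each arm, among them CYB2, the lactate dehydrogenase that reduces cytochrome c, at 38.6, 53.3, 726 and 713, 18.8-fold higher (12.8 to 28.8) and 13.4-fold higher (10.3 to 17.7).

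A count test was added on the recovered reads. It is the quasi-likelihood test of edgeR, with heat and rapamycin as additive terms and Benjamini-Hochberg adjustment over 5642 features, with 1 residual degree of freedom. The model counts a heat response that differs with rapamycin as scatter, and it speaks of the 4 libraries and not of the conditions. For heat it called 25 of 42 genes at an adjusted p below 0.05, all higher in heat shock and none lower, against 21.5% of all features called higher and 20.5% called lower. CYC7 had a log2 effect of 3.94 (edgeR adjusted p = 1.42e-27), NDI1 2.52 (adjusted p = 7.09e-10) and SDH2 1.71 (adjusted p = 1.02e-08). The genes not called included ATP1, ATP2, ATP3, COR1, CYC1, NDE1 and INH1, the last with an effect of 0.59 (edgeR adjusted p = 0.0560). For rapamycin edgeR called none of the 42 genes, none was below an unadjusted p of 0.05, and 59 features were called in all (1.05%). That test does not see a ratio that differs between temperatures, as that of NDE2 does.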

How the data were processed

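RNA was measured in 4 libraries, 1 per group, made from phenol-extracted total RNA with an Illumina kit, per the labels. The submitters' processing notes name TopHat, HTSeq and sacCer3; versions, settings, strand handling and removal of ribosomal RNA were not given in the sources used here. The signal values that the authors deposited are read counts per gene divided by a size factor per library, whose making no source states: 100% of the values above 0 are multiples of a step, within 0.0055. That step is 1.43, 0.888, 1.499 and 0.961 in the order of the text, and dividing by it gave the recovered reads.

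Ratios were taken on log2(value + 1) over 5642 features with a mean of at least 5. Intervals of ratios are exact conditional binomial intervals of the recovered reads and those of shares exact Clopper-Pearson intervals; differences between arms have a normal interval of the log ratio. They leave out all but counting error, and PCR copies cannot be recognised without molecular identifiers. Names, coding lengths and promoters come from RefSeq for R64, which sacCer3 is made from. None of the 42 coding regions overlaps another gene there. Pairs were aligned globally with Biopython 1.88. edgeR 4.0.16 ran in R 4.3.3 with the deposited size factors. Other steps used numpy 2.4.6, pandas 2.3.3 and scipy 1.17.1 in Python 3.11.15. The recovery of reads, the 2-fold rule for heat shock and the count test for heat were tried on simulated data, and the other steps were not. The simulated reads had counting error only and the same heat effect with and without rapamycin. They therefore cannot show how the count test behaves with variation between cultures or with a heat response that differs with rapamycin. Alternatives were library totals, protein-coding totals, median-of-ratios and TMM factors, pseudocounts of 0.25 and 5, a filter at 20, no filter, and the set without its paralog pairs. The genes and lists were chosen with earlier results of these data known. By rule all 42 genes could be named, and of each other list at most 4 past 2-fold with the largest ratios, plus HAP1 to HAP5; any further genes were chosen after their values were seen.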

Additional observations from a re-analysis of the deposited data

Results flagged for a closer look

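Results stand here where the same contrast gave opposite signs at the 2 levels of the other factor and both counting intervals left out equality. The difference between levels was not tested, since each is 1 library a group, and counting intervals leave out the variation between cultures. QCR6 had a heat shock log2 ratio of 0.55 without rapamycin and -0.49 with it; on library totals the values were 0.10 and -0.08. For NDE2 the log2 ratio with rapamycin over without was 2.06 at 30 °C and -0.81 in heat shock, and 1.76 and -0.33 on library totals. For COX12 it was 0.45 and -0.36, for INH1 0.39 and -0.33, and for ATP2 -0.11 and 0.10. On library totals COX12 and INH1 were above 0 at both temperatures, with 0.13 and 0.15 in heat shock. As deposited, the values of QCR6 and of TIM11 that stand apart both belong to the library at 30 °C with rapamycin. That library enters both the heat shock comparison with rapamycin and the rapamycin comparison at 30 °C. On library totals the log2 ratios with rapamycin over without are 0.59 at 30 °C and 0.57 in heat shock for TIM11. For QCR6 they are 0.76 and 0.58, so that neither value stands apart there.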

How the results depend on the processing

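Scaling is the choice on which the counts depend. On library totals the genes at least 2-fold higher numbered 8 in heat shock without rapamycin (median log2 ratio 0.51) and 23 with it (1.14). For rapamycin at 30 °C library totals gave 1 higher and 2 lower (median -0.18), in heat shock a median of 0.45, and for the difference of heat shock ratios 9 higher, 1 lower and a median of 0.67. On protein-coding totals the corresponding values were 10 higher (median 0.63) in heat shock without rapamycin, 21 with it (0.98), 1 higher and 2 lower for rapamycin at 30 °C, a median of 0.29 in heat shock, and 3 higher, 1 lower and a median of 0.39 for the difference. These settings shift all features together: the median of the set stood 0.93 (library totals) and 0.94 (protein-coding totals) above that of all features in heat shock without rapamycin, and by both 0.74 with it. Without the paralog pairs 1 gene was past 2-fold with rapamycin at 30 °C, QCR6, and 1 in the difference, also QCR6. Among all features, the higher share of those past 2-fold went from 50.6% to 29.8% on library totals in heat shock without rapamycin, from 55.6% to 78.6% with it, from 53.9% to 16.1% for rapamycin at 30 °C and from 64.9% to 92.0% in heat shock, and from 52.7% to 94.98% for the difference. The count test called 0 of 42 genes for rapamycin against 2 past 2-fold at 30 °C, and 25 against 20 for heat. The other settings left every count of the set within 1.5 times its value and moved each median by less than the typical counting error of 1 gene. No ratio past 2-fold changed sign under any setting. With 1 library a group none can be left out. No paired analysis was possible because the labels give no replicate numbers; the count test compares heat within rapamycin level. Depth limits NDE2 above all, which had 2 reads at 30 °C without rapamycin.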
